A study of Homo sapiens with 10 samples.

Results

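GSTP1 and 8 genes of the NRF2 pathway were examined in untreated cells of 5 human prostate cancer lines, as 9 of the 60642 gene symbols of the deposited table. The genes were chosen by name, with earlier results of these data known. They are GSTP1, NFE2L2, KEAP1, NQO1, TXNRD1, GCLM, HMOX1, SRXN1 and SLC7A11. The lines were DU145, PC3, LNCaP, DUCAP and VCAP, each with 2 biological repeats and 10 samples in all, profiled by polyA-enriched, strand-specific RNA-seq. All were grown in phenol red-free RPMI with fetal bovine serum, given as 5 to 10% in the labels, and harvested while growing exponentially. Each group is a single established line, so its repeats show the spread between cultures of that line and not between tumours, and DUCAP and VCAP are known to derive from the same patient. The study sets DU145 and PC3 against LNCaP, DUCAP and VCAP, and this grouped comparison was made beside that of each pair of lines.

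NRF2, the protein of NFE2L2, is the main transcription factor of the response to oxidants and electrophiles. KEAP1 holds it in the cytoplasm and presents it to a CUL3 ubiquitin ligase for degradation. When reactive compounds modify KEAP1, NRF2 accumulates, pairs with a small MAF protein in the nucleus and binds antioxidant response elements near genes for detoxification, glutathione supply and the thioredoxin system. GSTP1 encodes the pi-class glutathione S-transferase, which conjugates glutathione to electrophiles. In the prostate it is best known as a gene whose promoter is often methylated in cancer; DNA methylation was not measured here.

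Levels are given in TPM, a measure of transcript abundance scaled to a fixed total per sample. They correct for transcript length and can therefore be compared between genes. TPM do not keep the number of reads. The study gives only a range of read pairs over its samples, so the depth behind each value is unknown. TPM are shares of a total, and transcripts of the 37 mitochondrial genes held 32.1 to 36.0% of it in DUCAP and VCAP, against 12.7 to 22.5% in the other lines. Between the DU145 repeats, 1661 of 17520 tested genes were apart by 2-fold or more in TPM + 1. The other lines had 158 to 372 such genes, with 174 in PC3. Results on DU145 are therefore also given without each of its repeats where these change a call. PC3 repeat 2 nevertheless lay below repeat 1 for NFE2L2, KEAP1, NQO1, TXNRD1, GCLM, HMOX1, SRXN1 and SLC7A11, and above it for GSTP1. The gap was small for KEAP1 (86.8 and 82.7 TPM) and wide for HMOX1 (18.7 and 6.86 TPM). For the same genes the DU145 repeats differed in both directions. Some calls on PC3 were lost without its repeat 2, as given below. The cause of this joint shift was not tested. The line labels were checked against marker genes that separate DU145 and PC3 from the other lines. These genes were not used to tell apart the lines within either group. KLK2, a prostate kallikrein, lay at 180 to 8172 TPM in LNCaP, DUCAP and VCAP and did not exceed 0.19 TPM in DU145 and PC3. VIM, an intermediate filament of mesenchymal cells, had 799 to 1201 TPM in DU145 and PC3 and did not exceed 4.25 TPM elsewhere.

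The promoter of GSTP1 is shown because this gene had the largest difference of the 9 between DU145 and PC3 and the other lines. The sequence below is the 250 bases before the RefSeq start site, chr11:67583562-67583811 of GRCh38.p14 on the plus strand, written 5′ to 3′. The gene itself spans 67583812 to 67586653 on chromosome 11. Capitals mark the match to TGACNNNGC, the core of the antioxidant response element, which begins 66 bases before the start.
GSTP1 promoter: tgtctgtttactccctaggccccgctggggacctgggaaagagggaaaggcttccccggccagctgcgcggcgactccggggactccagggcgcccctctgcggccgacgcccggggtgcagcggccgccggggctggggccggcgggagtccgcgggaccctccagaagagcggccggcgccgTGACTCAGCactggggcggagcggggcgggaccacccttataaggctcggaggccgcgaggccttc

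The same letters also hold TGANTCA, the site of AP-1 factors, so these motifs overlap in GSTP1. The window from 250 bases before to 50 after the start held 36 CpG dinucleotides, more than 87.3% of the 35116 RefSeq promoter windows of this length. Of the 9 genes, 7 had an entry among these windows, with 10 windows in all, since NFE2L2, KEAP1 and TXNRD1 have 2 each. HMOX1 and SLC7A11 had no entry. TGACNNNGC occurred on either strand in 5 of these 10 windows and in 13.3% of all windows, and TGANTCA in 1 of the 10 and in 7.71% of all. A match is a run of letters and not a measured binding site.

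Matches to TGACNNNGC were also found in TXNRD1, GCLM and KEAP1, and all are shown so that they can be compared with that of GSTP1. Each is given with 10 flanking bases on either side, in the direction of transcription, with the match in capitals. In the upstream TXNRD1 window matches begin 99 and 8 bases before the start (chr12:104215670-104215698 and chr12:104215761-104215789, plus strand), and in the downstream window 1 begins 102 bases before (chr12:104286920-104286948). In GCLM it begins 34 bases before the start (chr1:93909446-93909474, minus strand), and in the downstream KEAP1 window matches begin 54 and 31 bases before (chr19:10502807-10502835 and chr19:10502784-10502812, minus strand). Those written with GC first match on the strand opposite to transcription. The match of GCLM and the one of KEAP1 nearer the start have the same letters. The windows of NQO1, SRXN1 and NFE2L2 held no match. Bases farther than 250 before or 50 after a start were not searched, so these genes may hold a match elsewhere.
GSTP1: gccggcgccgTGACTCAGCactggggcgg
TXNRD1, upstream window, farther match: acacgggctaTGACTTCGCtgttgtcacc
TXNRD1, upstream window, nearer match: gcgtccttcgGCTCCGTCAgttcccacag
TXNRD1, downstream window: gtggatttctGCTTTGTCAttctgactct
GCLM: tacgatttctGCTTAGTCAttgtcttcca
KEAP1, downstream window, farther match: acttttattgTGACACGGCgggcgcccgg
KEAP1, downstream window, nearer match: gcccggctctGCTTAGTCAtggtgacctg

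GSTP1 was abundant in DU145 and PC3 and nearly absent from the other lines. The DU145 repeats had 169 and 172 TPM and the PC3 repeats 395 and 423 TPM. LNCaP had 0.14 TPM in repeat 1 and was listed at 0 in repeat 2, DUCAP had 0.12 TPM and was likewise listed at 0 in repeat 2, and VCAP had 0.36 and 0.14 TPM. No sample of LNCaP, DUCAP or VCAP reached the lowest value of DU145. Among the tested genes, GSTP1 ranked at the 95.4 to 98.3 percentile in DU145 and PC3 and at the 2.9 to 14.5 percentile in the other 6 samples. PC3 exceeded DU145, with means of 409 ± 19.8 and 171 ± 2.02 TPM (SD, n = 2), by 1.26 on the log2(TPM + 1) scale (standard error 0.16, adjusted p = 0.0003 from limma). This call was lost with a pseudocount of 0.1. LNCaP, DUCAP and VCAP did not differ from each other beyond the spread of the repeats (differences of 0.01 to 0.23, adjusted p of 0.26 to 0.98 from limma). GSTP1 passed the filter on low values through its DU145 and PC3 samples alone, so its place among the tested genes already required a difference.

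**Figure D1:**
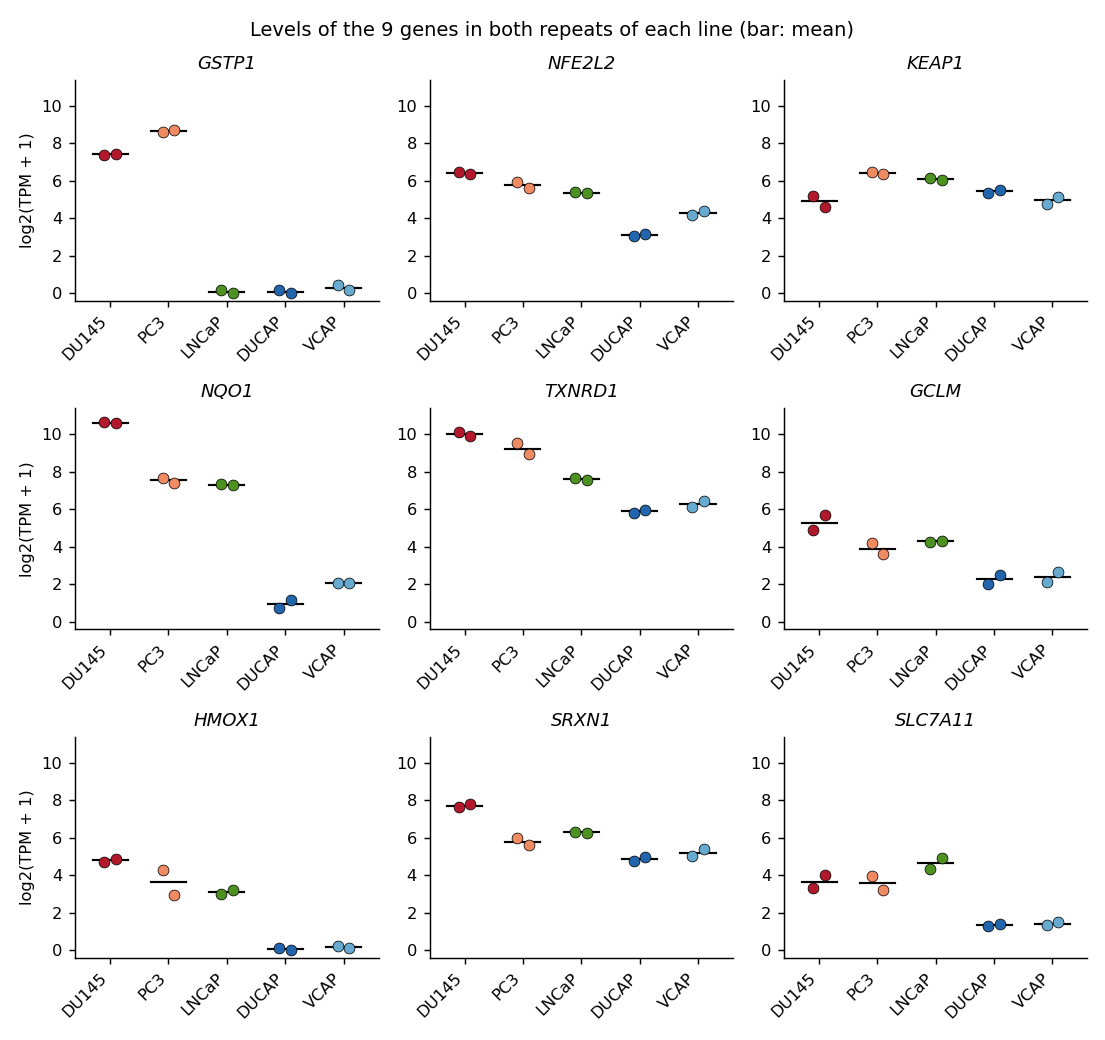
Levels of GSTP1 and the 8 NRF2-pathway genes as log2(TPM + 1) on the vertical axis, with the 5 lines on the horizontal axis, a point for each repeat and a bar for the mean of a line. GSTP1 lies near 0 in LNCaP, DUCAP and VCAP, NQO1 and HMOX1 are lowest in DUCAP and VCAP, and KEAP1 varies least between the lines.

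The other glutathione S-transferases, which share this activity with GSTP1, were not low in the same lines throughout. Summed over the 21 family genes in the table, the family amounted to 1471 to 1903 TPM in DU145 and PC3, 1045 and 1065 TPM in LNCaP and 339 to 433 TPM in DUCAP and VCAP. GSTP1 made up 26.2 and 28.3% of this sum in PC3, where it was the most abundant member, and 8.89 and 11.7% in DU145. In the other 6 samples its share was at most 0.0923%. The most abundant member was MGST1, a membrane-bound transferase, in DU145 and LNCaP, and MGST2, which also takes part in leukotriene synthesis, in DUCAP and VCAP. MGST1 reached 462 and 471 TPM in LNCaP, the line with the largest family sum among those with almost no GSTP1.

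**Figure D2:**
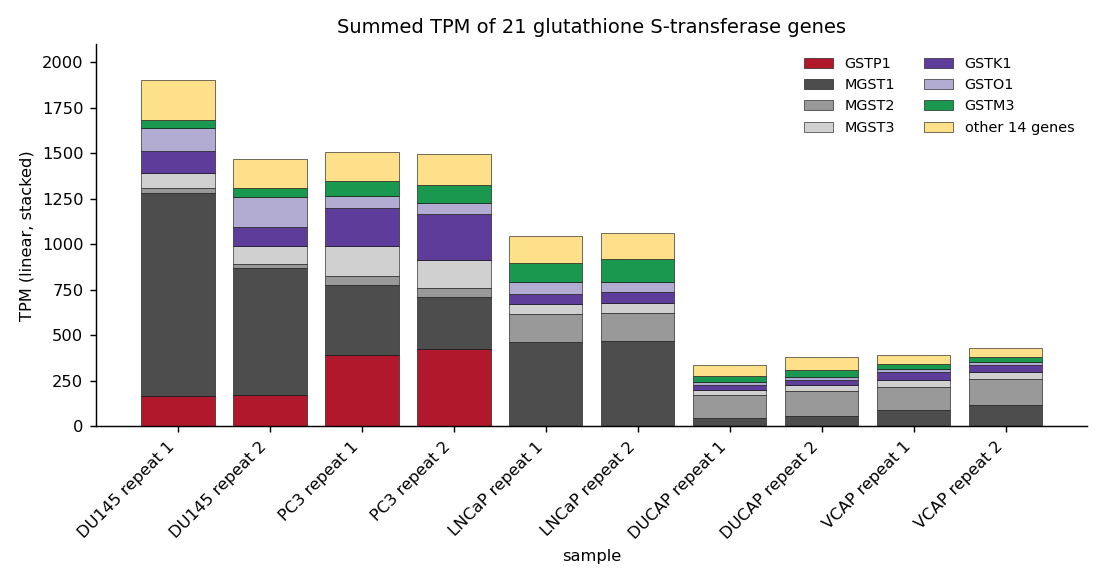
Summed TPM of 21 glutathione S-transferase genes on a linear axis, with a stacked bar for each of the 10 samples. GSTP1 is visible in DU145 and PC3 only, with 169 to 423 TPM, and MGST1 forms the largest block in DU145 and LNCaP.

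GSTA1 of the alpha class was present only where GSTP1 was nearly absent, and GSTA2 of the same class reached 1 TPM in LNCaP alone. GSTA1, a major transferase of liver and a detoxifier of steroid and lipid products, was listed at 0 in all 4 samples of DU145 and PC3 and had 15.4 to 21.8 TPM in LNCaP and DUCAP and 1.07 and 1.75 TPM in VCAP. The closely related GSTA2 was also listed at 0 in DU145 and PC3. It had 3.26 and 2.06 TPM in LNCaP, 0.51 and 0.42 TPM in DUCAP and 0.06 and 0.09 TPM in VCAP. GSTA4 of the same class was not called in the grouped comparison (−0.42, adjusted p = 0.1 from limma) and had 8.8 to 37.8 TPM in DU145 and PC3 and 19.6 to 48.8 TPM elsewhere. GSTA3 and GSTA5 did not pass the filter on low values. MGST2 lay at 19.8 to 47.7 TPM in DU145 and PC3 and at 125 to 155 TPM in the other lines, and its log2 difference was −2.06 (standard error 0.10, adjusted p = 4e-07 from limma). Among the mu class, GSTM4 had 21.5 to 41.5 TPM in DU145 and PC3 and at most 1.81 TPM elsewhere, and GSTM2 had 3.95 to 52.5 TPM against at most 0.16 TPM. GSTM1, named after its values were seen, had 53.6 and 42.8 TPM in DU145 and at most 0.27 TPM in the other 8 samples. The mu genes, like GSTA1 and GSTA2, are near copies of each other, and how RSEM shared reads out among them makes their separate levels uncertain. GSTT1 was not analysed here.

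The regulators NFE2L2 and KEAP1 were expressed in all 10 samples but ordered the lines differently. NFE2L2 had 88.2 and 82.7 TPM in DU145, 59.7 and 49.1 TPM in PC3, 42.1 and 39.3 TPM in LNCaP, 17.0 and 20.4 TPM in VCAP and 7.24 and 8.11 TPM in DUCAP. The repeats of no line overlapped those of another, and all 10 pairs of lines passed the test. The step from PC3 to LNCaP was the least certain, at 0.40 on the log2 scale (standard error 0.15, adjusted p = 0.0496 from limma), and did not pass in 13 of 18 other settings. The step from DU145 to PC3 (0.65, adjusted p = 0.00793 from limma) did not pass without PC3 repeat 2. DU145 exceeded DUCAP 11.1-fold by mean TPM.

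KEAP1 was highest in PC3, with 86.8 and 82.7 TPM, and in LNCaP, with 70.2 and 65.3 TPM. DUCAP had 40.7 and 44.9 TPM, VCAP 26.7 and 34.0 TPM and DU145 35.8 and 23.9 TPM. PC3 and LNCaP did not differ beyond the spread of the repeats (0.32, adjusted p = 0.21 from limma), nor did VCAP and DU145 (0.04, adjusted p = 0.88). DU145 thus had the highest NFE2L2 and, together with VCAP, the lowest KEAP1 in TPM. After median-ratio scaling and quantile normalization, KEAP1 was called lower in DU145 than in VCAP. Over the 18 other settings this difference ranged from −0.65 to 0.24. KEAP1 was also lower in DU145 than in DUCAP (−0.53, adjusted p = 0.0431 from limma), a call that was lost in 9 of 18 other settings, among them leaving out DU145 repeat 2. The ratio of NFE2L2 to KEAP1 in TPM was 2.47 and 3.46 in DU145, 0.593 to 0.687 in PC3, LNCaP and VCAP, and 0.178 and 0.181 in DUCAP. Being a ratio within a sample, it does not depend on a scaling that multiplies all genes of that sample alike. KEAP1 also exceeded DUCAP in LNCaP, by 0.65 (adjusted p = 0.021 from limma), a call that was lost in 7 of 18 other settings, with the sign turned after median-ratio scaling and quantile normalization.

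NQO1 and HMOX1 encode enzymes that act on quinones and on haem. NQO1, a quinone reductase and the standard readout of NRF2 activity, had 1592 and 1537 TPM in DU145, at the 99.6 and 99.5 percentile of the tested genes. PC3 had 207 and 170 TPM and LNCaP 164 and 155 TPM, and these lines did not differ beyond the spread of the repeats (0.24, adjusted p = 0.28 from limma). VCAP had 3.19 and 3.25 TPM and DUCAP 0.65 and 1.28 TPM. By mean TPM the largest steps down this order were from LNCaP to VCAP, at 49.5-fold, and from DU145 to PC3, at 8.29-fold. VCAP exceeded DUCAP by 1.12 on the log2(TPM + 1) scale (standard error 0.17, adjusted p = 0.0035 from limma). Unlike GSTP1, NQO1 was thus well expressed in LNCaP.

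HMOX1, which degrades haem to biliverdin, iron and carbon monoxide, had 25.6 and 28.3 TPM in DU145, 18.7 and 6.86 TPM in PC3 and 7.05 and 8.39 TPM in LNCaP. It lay between 0.03 and 0.19 TPM in DUCAP and VCAP, and passed the filter on low values through the other 3 lines. The PC3 repeats spanned the values of LNCaP, and these lines did not differ beyond that spread (0.52, standard error 0.36, adjusted p = 0.255 from limma), although PC3 was called higher without its repeat 2. DU145 exceeded PC3 by 1.16 (adjusted p = 0.027 from limma), and this call was lost in 7 of 18 other settings, among them leaving out either DU145 repeat. The separation of LNCaP from VCAP was larger, at 2.92 (standard error 0.36, adjusted p = 0.00019 from limma).

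TXNRD1 and SRXN1 serve the thioredoxin system, which reduces protein disulfides and keeps peroxiredoxins active. TXNRD1, the cytosolic thioredoxin reductase, had 1134 and 957 TPM in DU145, 742 and 494 TPM in PC3, 201 and 191 TPM in LNCaP, 69.2 and 87.7 TPM in VCAP and 55.1 and 62.4 TPM in DUCAP. It was the most abundant of the 9 genes in PC3, LNCaP, DUCAP and VCAP, and second to NQO1 in DU145. Each step down this order passed the test except that from VCAP to DUCAP (0.40, adjusted p = 0.23 from limma). The step from DU145 to PC3 (0.78, adjusted p = 0.014 from limma) did not pass without DU145 repeat 1 or without PC3 repeat 2.

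SRXN1, sulfiredoxin, repairs peroxiredoxins whose active cysteine has been overoxidised. It had 198 and 222 TPM in DU145, 78.4 and 76.3 TPM in LNCaP, 62.7 and 47.8 TPM in PC3, 31.7 and 41.3 TPM in VCAP and 26.5 and 30.9 TPM in DUCAP. DU145 stood apart from LNCaP by 1.43 (standard error 0.18, adjusted p = 0.00023 from limma). PC3 lay below LNCaP (0.49, adjusted p = 0.046 from limma) and above VCAP (0.58, adjusted p = 0.020). The first of these calls was lost in 8 of 18 other settings, and the second turned sign after median-ratio scaling and quantile normalization.

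GCLM and SLC7A11 supply glutathione. GCLM, the modifier subunit of the enzyme that makes gamma-glutamylcysteine, had 28.5 and 51.0 TPM in DU145, 18.4 and 19.2 TPM in LNCaP, 17.4 and 11.2 TPM in PC3, 3.33 and 5.31 TPM in VCAP and 3.02 and 4.76 TPM in DUCAP. DU145 exceeded LNCaP by 0.99 (standard error 0.34, adjusted p = 0.035 from limma), a call that was lost without DU145 repeat 2 and without either LNCaP repeat. LNCaP and PC3 did not differ beyond the spread of the repeats (0.40, adjusted p = 0.34 from limma), and both lay above VCAP.

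SLC7A11, the cystine importer, was the only one of the 9 genes whose highest mean was in LNCaP, with 19.6 and 29.3 TPM. DU145 had 8.97 and 15.1 TPM and PC3 14.6 and 8.23 TPM, and these lines did not differ beyond the spread of the repeats (0.08, adjusted p = 0.88 from limma). DUCAP and VCAP had 1.5 to 1.86 TPM. LNCaP exceeded DU145 by 0.98 (adjusted p = 0.031 from limma), a call that was lost without DU145 repeat 1 or LNCaP repeat 2, and VCAP by 3.21 (standard error 0.32, adjusted p = 5.7e-05).

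DU145 and PC3 were then compared with LNCaP, DUCAP and VCAP, with 4 samples against 6. In this comparison 74.4% of all tested genes were called, 51.9% higher in DU145 and PC3 and 22.5% lower, and the median difference of all genes was 0.40 on the log2(TPM + 1) scale. Of the 9 genes, 8 were higher and 0 lower, with a median difference of 1.85. Since the genes were chosen with earlier results of these data known, this count is no test of them against all genes. GSTP1 had the largest difference at 7.89 (standard error 0.10, adjusted p = 1.6e-09 from limma), followed by NQO1 at 5.63 (0.11), HMOX1 at 3.08 (0.23) and TXNRD1 at 3.03 (0.13). A difference of this size for GSTP1 depends on the pseudocount, since its values in 6 samples lay near 0. GSTP1 also passed the filter on low values through DU145 and PC3 alone, so its place in this comparison already required a difference. The differences of NFE2L2 (1.85), GCLM (1.61), SRXN1 (1.29) and SLC7A11 (1.15, adjusted p = 0.0011 from limma) were smaller, and after quantile normalization they were 1.304, 1.06, 0.81 and 0.62 (adjusted p = 0.029 for SLC7A11). KEAP1 was not called (0.17, adjusted p = 0.27 from limma), and its sign turned after rescaling without mitochondrial genes (−0.07), median-ratio scaling (−0.30) and quantile normalization (−0.37).

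The groups did not overlap for 4 of the 9 genes, GSTP1, NFE2L2, NQO1 and TXNRD1, all higher in DU145 and PC3. For GSTP1 this carries no support, since it passed the filter through DU145 and PC3 alone. Of all tested genes, 19.8% lay without overlap higher in DU145 and PC3 and 6.92% lower. For NQO1 the gap was narrow, with 170 TPM as the lowest value of DU145 and PC3 and 164 TPM as the highest of the others, both set by PC3 and LNCaP. For GCLM, HMOX1, SRXN1 and SLC7A11 the LNCaP samples lay within or above the range of DU145 and PC3. GSTP1 thus differed from these 4 genes in LNCaP, where it was nearly absent and they were not.

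Between pairs of lines, 75 of 90 differences were called, which is 83.3%, where 56.9% of all gene-by-pair differences were. The pairs share their lines and are not independent, and the genes were chosen with earlier results of these data known. LNCaP exceeded DUCAP in 8 genes (60.7% of all tested genes differed and 49.3% were higher) and VCAP in 8 (60.1% differed, 43.2% were higher and 16.8% lower), with GSTP1 as the exception in both. PC3 exceeded DUCAP in all 9 genes (67.8% of all genes differed and 52.0% were higher) and VCAP in all 9 (67.6 and 47.7%). These counts moved with the scaling. PC3 exceeded DUCAP in 7 genes after median-ratio scaling, with KEAP1 and SRXN1 lost, and in 6 after quantile normalization, with GCLM lost as well. The KEAP1 difference then went from 0.97 to as little as 0.09, that of SRXN1 from 0.91 to 0.04 and that of GCLM from 1.64 to 0.72. PC3 exceeded VCAP in 8 genes after either scaling and after rescaling without mitochondrial genes, with SRXN1 lost. Every one of the 9 genes but KEAP1 was higher in DU145 than in DUCAP (66.6% of all genes differed, 51.6% were higher and 14.9% lower) and in VCAP (65.4% differed, 46.4% were higher).

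DU145 exceeded LNCaP in 7 genes and was lower in KEAP1 and SLC7A11, where 55.9% of all genes differed, 29.1% higher and 26.8% lower. DU145 exceeded PC3 in 6 genes and was lower in GSTP1 and KEAP1, where 49.3% of all genes differed, 23.8% higher and 25.5% lower. It exceeded PC3 in 4 genes without either of its own repeats and in 2, NQO1 and SRXN1, without PC3 repeat 2. PC3 exceeded LNCaP in GSTP1, NFE2L2 and TXNRD1 and was lower in SRXN1 and SLC7A11, where 57.7% of all genes differed, 30.7% higher and 27.0% lower. Of these calls, those of GSTP1 and TXNRD1 were kept in all 18 other settings. The call of NFE2L2 was lost in 13 of them, that of SRXN1 in 8 and that of SLC7A11 in 2. Over these settings the SLC7A11 difference ranged from −1.44 to −0.67. DUCAP and VCAP differed in NFE2L2 and NQO1 alone, both lower in DUCAP, where 18.3% of all genes differed, 4.24% higher and 14.0% lower. In the F test over the 5 lines all 9 genes passed, as did 90.8% of all tested genes.

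**Figure D3:**
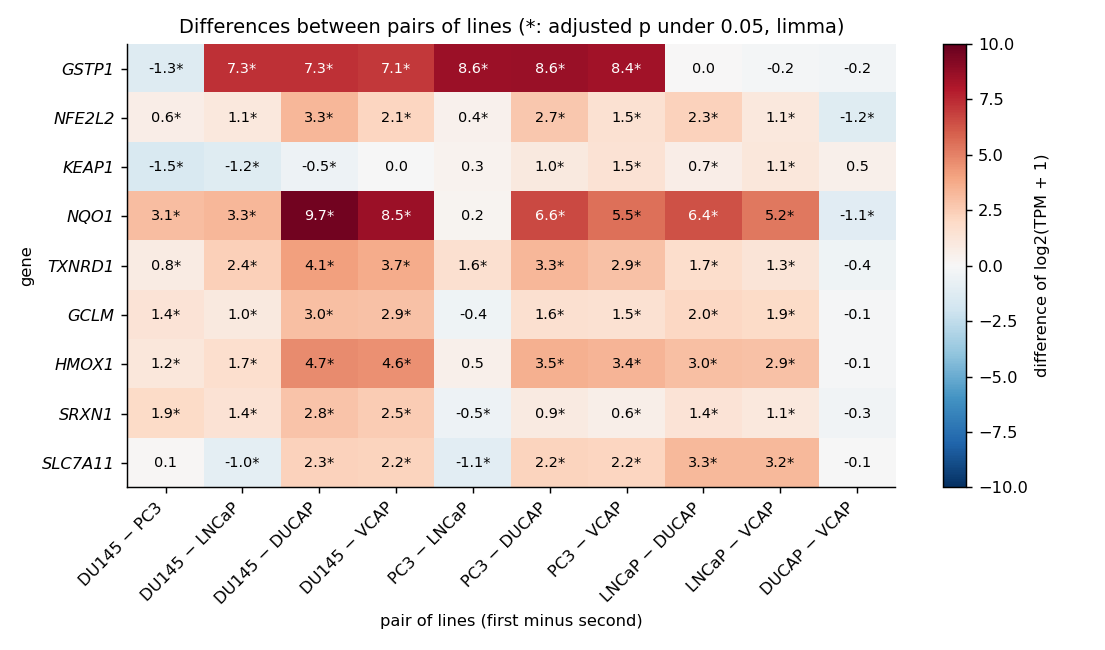
Differences of log2(TPM + 1) between each pair of lines (columns, first line minus second) for the 9 genes (rows), with an asterisk where the adjusted p from limma was under 0.05. The GSTP1 row has values of 7.1 to 8.6 for DU145 or PC3 against the other lines and values near 0 among LNCaP, DUCAP and VCAP, whereas the NQO1 row is also high for LNCaP against DUCAP and VCAP.

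The other genes of the pathway were described with 4 lists, in the comparison of DU145 and PC3 with the other 3 lines. These lists were also chosen with earlier results of these data known, so their counts are no test against all genes. Of 13 regulators and partners of NRF2, 11 were higher and 1 lower, where 51.9% of all tested genes were higher and 22.5% lower, with a median difference of 0.67 against 0.40 for all genes. Among those whose samples did not overlap between the groups, the largest differences were in MAFF (3.23) and MAFG (2.21), small MAF proteins that pair with NRF2 on DNA, and in NFE2L3 (2.81), a factor of the same family. MAFF lay at 15.3 to 21.6 TPM in DU145 and PC3 and at 0.32 to 1.87 TPM elsewhere. AMER1, which binds KEAP1 and was named after its values were seen, was the gene that was lower (−0.66). The count of higher genes moved to 7 after median-ratio scaling and 5 after quantile normalization.

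Of 32 other NRF2 targets, 24 were higher and 3 lower (51.9 and 22.5% of all tested genes), with a median difference of 1.39. ABCC3, an exporter of glucuronide conjugates, differed by 5.83 and lay at 62.5 to 164 TPM against at most 2.83 TPM. ALDH3A1, an aldehyde dehydrogenase, differed by 3.02, had 27.1 and 29.2 TPM in PC3 and 1.61 and 1.02 TPM in DU145, and was at most 0.07 TPM elsewhere. ALDH3A1, ABCC2 and AKR1B10 passed the filter on low values through samples of 1 of the groups alone, so a difference was already required of them. The lower genes, named after their values were seen, were IDH1 (−0.70), PTGR1 (−0.61) and GPX2 (−0.40). For all 3 the samples of the groups overlapped. PTGR1 was low in PC3 and LNCaP only, with means of 37.7 and 47.5 TPM. Its means were 234 TPM in DU145, 276 TPM in DUCAP and 220 TPM in VCAP. GPX2 lay at 0.69 to 2.81 TPM in all samples, near the limit of the filter. DU145 had the highest mean of the 5 lines for 19 of the 32 targets, which is 59.4%, and for 25.5% of all tested genes. Against PC3, DU145 was higher in 18 targets and lower in 4, where 23.8 and 25.5% of all genes were. Against LNCaP, DU145 was higher in 21 targets and lower in 4, where 29.1 and 26.8% of all genes were. PC3 was higher than LNCaP in 10 targets and lower in 12, where 30.7 and 27.0% of all genes were. For this list and those below, counts of highest means and counts between pairs of lines were made with all samples. They were not repeated without single repeats or with other scalings.

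Of the 15 other glutathione S-transferases that were tested, 10 were higher and 3 lower (51.9 and 22.5% of all tested genes), with a median difference of 1.56. Among the lines, LNCaP had the highest mean for 6 of these 15, which is 40.0%, and for 26.8% of all tested genes. GSTM4 (4.61), GSTM2 (4.25) and GSTO2 (2.92), an omega-class enzyme that reduces dehydroascorbate, had the largest differences upward, and GSTA1, MGST2 and GSTA2 were the lower genes. GSTM1, GSTM2, GSTA1 and GSTA2 passed the filter through samples of 1 of the groups alone, so their place in these counts required a difference. Of 23 other enzymes of glutathione, thioredoxin and peroxide metabolism, 14 were higher and 4 lower (51.9 and 22.5% of all tested genes), with a median of 0.62. LNCaP had the highest mean for 11 of these 23, which is 47.8%. Against LNCaP, DU145 was higher in 6 and lower in 11, where 29.1 and 26.8% of all genes were. PC3 was higher than LNCaP in 5 and lower in 7 (30.7 and 27.0%). LNCaP was higher than DUCAP in 15 and lower in 3 (49.3 and 11.5%). It was higher than VCAP in 16 and lower in 2 (43.2 and 16.8%). GPX7 passed the filter through samples of 1 of the groups alone. GPX8, a peroxidase of the endoplasmic reticulum, differed by 4.03 and lay at 49.3 to 65.6 TPM against 0.28 to 20.3 TPM. GLRX, a glutaredoxin, differed by 2.31. GGT1, which cleaves extracellular glutathione, differed by −0.99 and lay at 16.2 to 26.3 TPM against 31.0 to 48.0 TPM. SOD2, the manganese superoxide dismutase of mitochondria, was higher by 0.85 (adjusted p = 0.0035 from limma), a call that was lost after median-ratio scaling and quantile normalization. The split of these enzymes also moved with the scaling, to 9 higher and 8 lower after median-ratio scaling and 8 and 8 after quantile normalization. The mitochondrial share of TPM given above was highest in DUCAP and VCAP, and its part in these differences beyond the rescaled values was not tested.

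**Figure D4:**
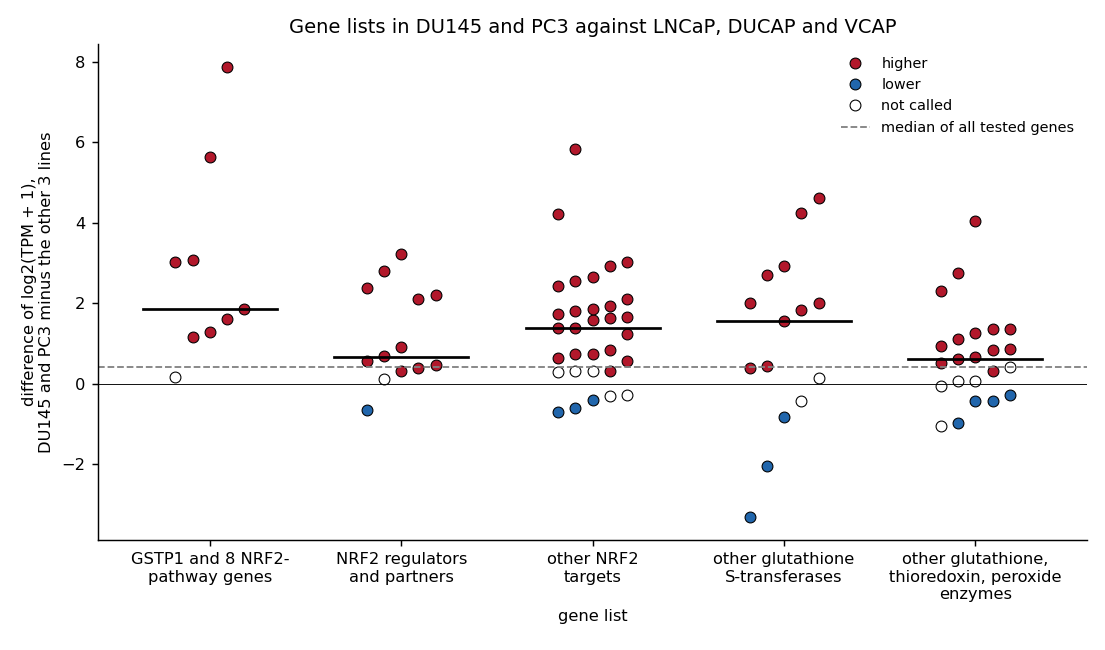
Difference of log2(TPM + 1) between DU145 and PC3 and the other 3 lines (vertical axis) for the genes of 5 lists (horizontal axis), with a point for each gene coloured by its call, a bar for the median of each list and a dashed line for the median of all tested genes. GSTP1 at 7.89 is the highest point, and GSTA1, listed at 0 in DU145 and PC3, is the lowest.

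The genes whose levels followed GSTP1 most closely across the 10 samples were TIMP1, an inhibitor of metalloproteinases, ZEB1, a repressor of epithelial genes, LINC01515, AL583722.1 and ATF7IP2 (r of 0.998 to 0.999, Pearson, on the log2 scale). TIMP1 had 147 to 438 TPM in DU145 and PC3 and at most 0.25 TPM elsewhere. The 10 samples are of 5 lines, and a gene that is present in DU145 and PC3 and absent from the rest reaches a high r in any case. Among the other 8 genes, TXNRD1 was the most like GSTP1, with r of 0.893 and rank 1325 of 17519, and KEAP1 the least, with r of 0.196.

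The genes most like NQO1 were EFCAB2, LLGL1, UBQLN4, ZNF219 and FAM50B (r of 0.993 to 0.996), each with its highest mean in DU145 and its lowest in DUCAP. FAM50B had 15.8 and 14.7 TPM in DU145, 5.04 and 6.01 TPM in PC3, 5.51 and 6.41 TPM in LNCaP and 0.16 to 1.03 TPM in DUCAP and VCAP. Within the pathway, HMOX1 (r of 0.983, rank 68), NFE2L2 (0.968, rank 214), GCLM (0.963, rank 269) and TXNRD1 (0.949, rank 505) were more like NQO1 than GSTP1 was (0.724, rank 5227). The samples share lines and the total to which TPM are scaled, so these values of r describe the order of the lines and carry no test.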

How the data were processed

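The authors trimmed reads with Trim Galore 0.6.5 after FastQC 0.11.9, aligned them with STAR 2.7.2b to GRCh38 and quantified genes with RSEM 1.3.3, and deposited TPM per gene symbol for each sample. No scaling between samples is stated, nor how rows sharing a symbol were merged. SOD2 and GGT1 carry more decimals than the other listed genes. Their values, such as 68.565 TPM for SOD2 in DU145 repeat 1, have the form of averaged rows. The levels of these genes may therefore be means and not totals. Samples were grouped by their labels, and no columns were identical. TPM keep no depth, so no counting interval was computed.

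The 17520 genes that reached 1 TPM in 2 or more samples were tested as log2(TPM + 1) with limma 3.58.1 in R 4.3.3, using 1 coefficient per line and a prior variance with a trend. P-values were adjusted by Benjamini-Hochberg over all these genes, within each comparison, at 0.05. The p-values measure the spread between 2 repeats per line and speak of these lines only. Fold changes on this scale understate changes of low genes. The tests were an F test over the lines, DU145 and PC3 against the others, and all 10 pairs. On simulated data of 17520 genes for the grouped comparison, 95.0% of 200 genes changed by 1.5 (log2) were recovered, and 5.00% of calls were false. The F test recovered 81% of the changed genes. All other genes were simulated without differences between lines, whereas 90.8% of the tested genes passed the F test in the data. These simulated shares therefore do not carry over to the calls given here. The genes and lists were chosen with earlier results of these data known. Of each list, the 3 largest called increases and decreases without overlap were named, and for GSTP1 and NQO1 the 5 genes of highest r. A gene named by this rule is not reported here. Promoter sequences are from RefSeq (GRCh38.p14). Alternatives were another pseudocount, filters, scalings, variance model, adjustment, fold threshold, the repeat number as a block, and each sample left out. Python 3.11.15, pandas 2.3.3 and matplotlib 3.10.9 were used.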

Additional observations from a re-analysis of the deposited data

How the results depend on the processing

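Of the 9 genes, all but KEAP1 kept their direction and their call in DU145 and PC3 against the other lines under all 18 other settings; the difference of GSTP1 ranged from 7.55 to 10.39, of HMOX1 from 2.74 to 4.70, of GCLM from 1.06 to 1.82, of SRXN1 from 0.81 to 1.39 and of SLC7A11 from 0.62 to 1.46. KEAP1 turned sign after rescaling without mitochondrial genes (−0.0742), median-ratio scaling (−0.30) and quantile normalization (−0.37, adjusted p = 0.028 from limma, so that 1 of the 9 genes was then lower), and was called higher without DU145 repeat 2 (0.31). Of the 75 called differences between pairs of lines, 59 kept their call and sign in every setting, and 67 to 75 were called when samples were left out. The median difference of all genes moved from 0.40 to 0.22, 0.02 and −0.085 under these scalings, and the share of calls that were higher from 69.8 to 61.3, 52.1 and 46.2%. A fit with a replicate block, by repeat number, called 13007 genes (13033 without it), 8 of the 9 genes higher and 72 of the pairwise differences; the labels do not tie equal numbers together, and deviations of equal-numbered repeats had a mean r of 0.00922 (−0.191 to 0.249).

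Counts over all genes and the lists moved as follows; where no construction is named the cause was not tested. Requiring a difference of at least 1 left 6144 genes (4677 higher, 1467 lower), 5 regulators higher and 0 lower, 0 other targets lower, and 7 other enzymes higher and 0 lower. Testing the genes with a mean of at least 5 TPM, fewer genes by construction, left 10150 in the F test, 8256 in the grouped comparison (2105 lower), 66384 gene-by-pair differences and 0 regulators lower. Median-ratio scaling gave 6092 lower genes, 7 regulators higher, 5 other targets lower, and 9 other enzymes higher and 8 lower. Quantile normalization gave 5932 higher and 6896 lower genes, 5 regulators higher and 3 lower, 5 other targets lower, and 8 other enzymes higher and 8 lower. Rescaling without mitochondrial genes gave 5 other targets lower. Leaving out each sample gave 2 to 5 other enzymes lower, against 4. The unknown depth and 2 repeats per line limit the calls on low genes.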
